A study of Mus musculus with 12 samples.

Results

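The retinoic acid response of Faf2 knockout cells was measured in 6 of the 12 RNA-seq libraries of the study, 3 from knockout cells induced with retinoic acid (KO RA) and 3 from uninduced knockout cells (KO NO), and all 16502 genes that passed a filter on low counts were compared. The cells are NE-4C, a mouse neural stem cell line taken from embryonic day 9 brain and immortalised by loss of p53, so every group lacked p53. The knockout line carries a CRISPR-Cas9 deletion of exon 4 of Faf2, the gene of an adaptor that helps to remove misfolded proteins from the endoplasmic reticulum (ER), and all KO libraries come from 1 such line. KO RA cells received 1 µM all-trans retinoic acid (RA) for 24 h, then medium without RA, and were collected on day 3. KO NO cells were collected without any perturbation, so RA and the days of culture that went with it cannot be told apart. The 3 replicates of a group are separate passages. The 6 libraries of wild-type cells (WT RA and WT NO, induced or not in the same way) served to compare the response between genotypes.

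RA is made from vitamin A, binds nuclear receptors of the RAR and RXR families on DNA and turns target genes on. Among its known targets are the enzyme that degrades it, proteins that carry it in the cytoplasm, and Hox genes, which set position along the hindbrain and spinal cord. In neural progenitors RA is used to start neuronal differentiation, in which cells leave the cell cycle, express proneural transcription factors and then neuronal cytoskeletal genes.

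Levels below are in CPM, the count as a share of the TMM-scaled library total. The deposited counts were scaled so that transcript length is already removed, which allows levels of different genes to be compared. A gene was called when its adjusted p in edgeR's quasi-likelihood test (Benjamini-Hochberg) was under 0.05. The words rose and fell are used of genes called both over all 12 libraries and without KO RA replicate 3, unless 1 of the fits is named. Fold changes are log2 of KO RA against KO NO ± their standard error (SE), and where a pair of values is given the first is over all libraries and the second without KO RA replicate 3.

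KO RA replicate 3 stood apart from the other KO libraries. Its total of 25660576 counts was within the range of the 6 KO libraries (17370069 to 30738717), but its TMM factor was 0.3935 against 1.099 to 1.277 in the other 5. So low a factor raises every CPM of this library relative to its share of the counts. Which KO RA library is highest or lowest, summed levels and numbers of genes above or below the other libraries therefore depend on the scaling. The 100 most abundant genes took 62.5% of its counts against 37.1% to 40.4%, mitochondrial genes took 23.5% against 9.1% to 12.6%, and 13588 genes reached 10 counts against 14966 to 15633. Its Pearson's r of log2 CPM, over genes, which are not independent replicates, was 0.815 and 0.828 with KO RA replicates 1 and 2, which had 0.948 with each other. The first principal component of the 500 most variable genes (56.2% of their variance) set KO RA replicate 3 apart from the other KO libraries, and the second (25.9%) set KO NO apart from KO RA replicates 1 and 2. Without KO RA replicate 3 the first component (68.5%) separated the treatments. In KO RA replicate 3, 1429 of 16502 genes lay over 4-fold above both other KO RA libraries (on CPM + 1) and 244 over 4-fold below, against 7 and 18 genes for KO RA replicate 1. Each result below was therefore computed with and without it.

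Faf2 itself (ENSMUSG00000025873, chr13:54769596-54813238, plus strand, GRCm39) was measured at 21, 21.7 and 25.4 CPM in KO NO and at 36.1, 34.3 and 18.7 CPM in KO RA. The WT libraries held 35.1 to 50 CPM. No KO NO library reached the WT range, whereas KO RA replicate 1 lay within the WT range and replicate 3 below KO NO. A gene-level value sums over the whole transcript and does not show whether exon 4 was absent. Between KO RA and KO NO the log2 fold change was 0.39 ± 0.27 (adjusted p = 0.377) over all libraries and 0.62 ± 0.18 (adjusted p = 0.0382) without KO RA replicate 3.

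After RA, 12 of 22 tested mesenchymal markers, 18 of 42 axon guidance genes and 5 of 11 genes of retinoid metabolism and binding were higher in knockout cells over all libraries, and 3 of 24 mitosis genes were lower. Over all libraries 642 genes were higher in KO RA and 262 were lower, of 16502 tested (3.89% and 1.59%). Without KO RA replicate 3, 1469 were higher and 1307 lower, of 17327 tested (8.48% and 7.54%). Of the calls over all libraries, 615 of the 642 higher genes and 262 of the 262 lower genes were also called without that library, and these were 41.9% of the 1469 and 262 of the 1307 called without it. The number of genes called in opposite directions was 0. The balance differed, with 71.0% of calls higher over all libraries and 52.9% without KO RA replicate 3, and the median log2 fold change over all genes was 0.11 and -0.02. Large increases were more frequent than large decreases in both fits. Of the genes called over all libraries, 167 had a log2 fold change above 4 and 4 had one below -4, and without KO RA replicate 3 these were 205 and 37.

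Leaving out other libraries moved the counts too. Without KO NO replicate 1, 2 or 3 there were 152, 153 and 174 higher genes and 42, 57 and 59 lower ones. Without WT RA replicate 1, 2 or 3 there were 398, 445 and 426 higher and 134, 167 and 146 lower genes, and without WT NO replicate 2 there were 486 and 161. The WT libraries enter these counts through the filter, the scaling and the estimate of the spread that all groups share. Fitted alone, the 6 KO libraries gave 178 higher and 18 lower genes, and the 5 other than KO RA replicate 3 gave 2223 and 1991.

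**Figure D1:**
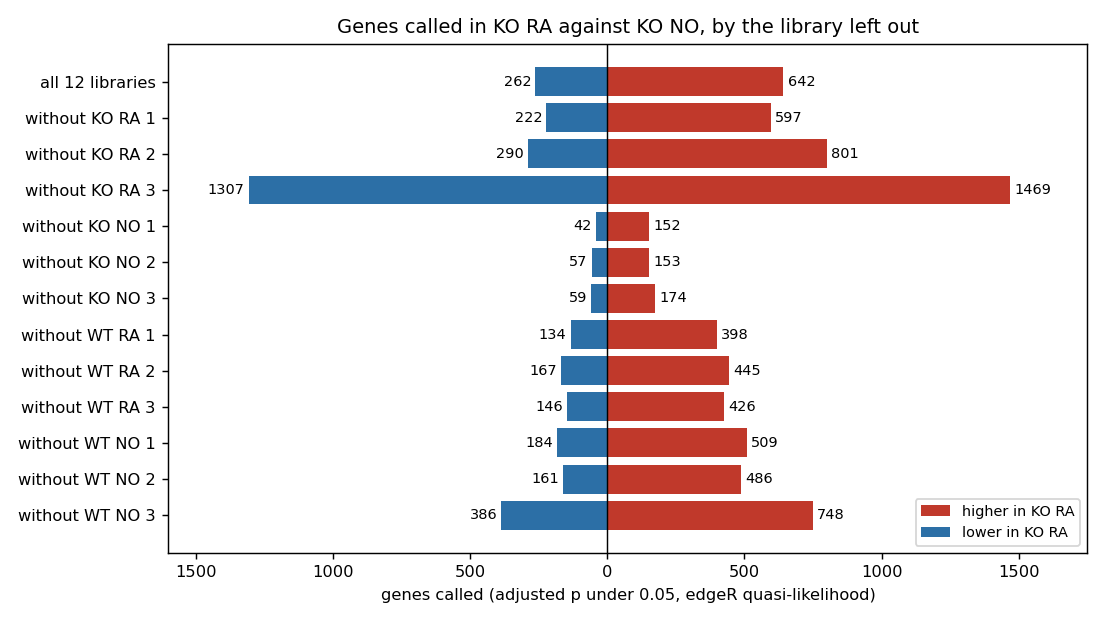
Number of genes called higher (right, red) and lower (left, blue) in KO RA than in KO NO, for the fit of all 12 libraries and for fits that drop 1 of them. The longest bars, 1469 higher and 1307 lower, are those without KO RA replicate 3, and the shortest are those without a KO NO library.

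Because the fit without KO RA replicate 3 does not use that library, its values can be set beside the calls. The same KO NO libraries enter both the calls and this comparison, so the shares below are not independent of the calls. Agreement above the shares over all genes is partly built in. Of the 1469 genes called higher without it, KO RA replicate 3 lay above all 3 KO NO libraries in 909 (61.9%) and below all 3 in 389 (26.5%). Over all 17327 genes tested these shares were 40.7% and 45.5%. Of the 1307 genes called lower, it lay below all KO NO libraries in 788 (60.3%) and above them in 440 (33.7%). For most called genes KO RA replicate 3 thus lay on the side of the other KO RA libraries, and for 389 and 440 of them on the opposite side.

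The 10 higher genes with the smallest p over all libraries were chosen among genes whose KO RA and KO NO libraries did not overlap. Cdh11 (ENSMUSG00000031673, chr8:103358726-103512687, minus strand), a cadherin of mesenchymal cells, had the smallest p. It measured 0.498, 0.415 and 0.503 CPM in KO NO and 34.7, 18.5 and 15.7 CPM in KO RA (5.59 ± 0.35 and 5.79 ± 0.28, adjusted p = 7.63e-05 and 1.06e-05). Igf2 (ENSMUSG00000048583, chr7:142204503-142220694, minus strand), an imprinted fetal growth factor, reached the highest level of the 10. Igf2 was at 2.81, 2.4 and 2.37 CPM in KO NO and at 292, 196 and 192 CPM in KO RA (6.48 ± 0.49 and 6.58 ± 0.47, adjusted p = 0.000168 and 4.94e-05). For both genes the KO RA libraries stood far above the KO NO libraries, and the estimates with and without KO RA replicate 3 were within 1 SE of each other.

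The other 8 were Prrx1 (6.15 ± 0.48), a homeobox gene of limb and facial mesenchyme, the fibrillar collagen genes Col1a2 (5.51 ± 0.45) and Col3a1 (6.42 ± 0.57), the matrix proteoglycan gene Vcan (4.40 ± 0.38), the heparin-binding growth factor gene Ptn (6.37 ± 0.51), Sox9 (4.94 ± 0.41), which encodes a transcription factor of glial progenitors, neural crest and cartilage, Palmd (4.93 ± 0.40), and Gxylt2 (4.92 ± 0.39), whose product adds xylose to Notch. Col3a1 was lowest in KO RA replicate 3, with 71.7, 35.3 and 15.9 CPM in KO RA against 0.352, 0.652 and 0.419 CPM in KO NO. Ptn was highest there, with 62, 29.5 and 86.5 CPM against 0.352–1.01 CPM in KO NO. Without KO RA replicate 3, 5 further genes led the higher side. They were Igfbp5 (7.69 ± 0.46), which encodes an IGF-binding protein, the nuclear receptor gene Nr2f2 (6.26 ± 0.39), the homeobox gene Irx3 (4.55 ± 0.30), the protocadherin gene Dchs1 (3.36 ± 0.24) and the synaptic organiser gene Cbln1 (5.55 ± 0.40). For Irx3, KO RA replicate 3 was at 0.991 CPM, closer to the 0.444–0.503 CPM of KO NO than to the 11 and 11.4 CPM of the other KO RA libraries.

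On the lower side the changes were smaller. Pcolce2 (ENSMUSG00000015354, chr9:95519466-95580207, plus strand), whose product enhances the cleavage of procollagen, had the smallest p. It measured 15.6, 15.6 and 23.7 CPM in KO NO and 2.39, 2.62 and 2.18 CPM in KO RA, without overlap (-2.92 ± 0.27 and -2.87 ± 0.28, adjusted p = 0.000366 and 0.00027). Next came Tmem88 (-2.10 ± 0.28), which encodes an inhibitor of Wnt signalling, the protease inhibitor gene Spint1 (-3.40 ± 0.45), Pgap6 (-2.82 ± 0.40), a gene of GPI-anchor processing, and Slc7a7 (-1.72 ± 0.25), a transporter gene for cationic amino acids. Slc7a7 was at 117, 113 and 120 CPM in KO NO and at 38.9, 41.7 and 25.4 CPM in KO RA. Rimkla (-2.05 ± 0.30), Rhd (-1.97 ± 0.29), Lars (-1.59 ± 0.24), which encodes leucyl-tRNA synthetase, and Aunip (-1.17 ± 0.18) followed. Without KO RA replicate 3 the 5 further leading lower genes were Amot (-1.77 ± 0.16), Ftsj3 (-0.93 ± 0.10), Cdc20 (-1.15 ± 0.12), Lrpap1 (-1.33 ± 0.15) and Top2a (-1 ± 0.11), and each was also called lower over all libraries, with log2 fold changes from -0.84 for Ftsj3 to -2.09 for Amot.

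**Figure D2:**
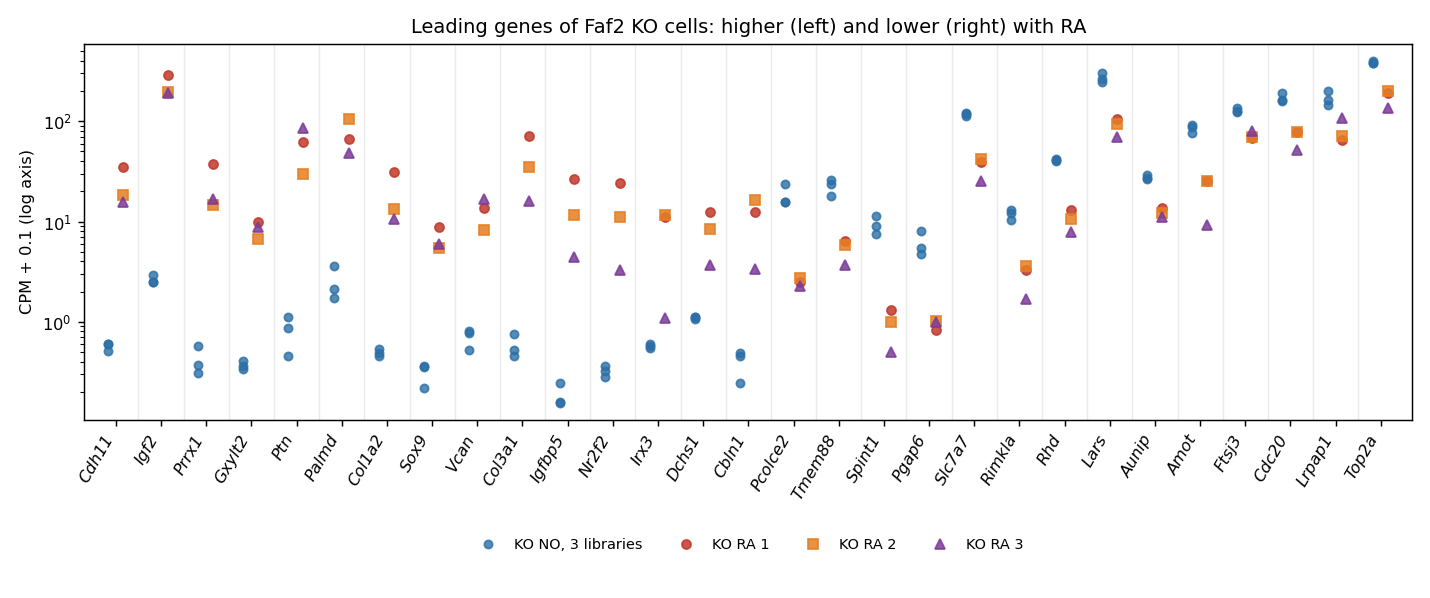
Levels of the leading higher genes (left) and lower genes (right) named above in the 6 libraries of Faf2 KO cells, in CPM + 0.1 on a log axis. Blue points are the 3 KO NO libraries, and red circles, orange squares and purple triangles are KO RA replicates 1, 2 and 3. KO RA replicate 3 lies near KO NO for Irx3 (0.991 CPM) and with the other KO RA libraries for Igf2 (192 CPM) and Pcolce2 (2.18 CPM).

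Genes of retinoid handling were among those that changed. Of the 15 listed, 5 were higher and 1 lower of 11 tested over all libraries, and 6 and 1 of 12 without KO RA replicate 3. Their median log2 fold change was 1.83 and 2.11, beside 0.11 and -0.02 over all genes. Cyp26a1, the enzyme that degrades RA, was at 0.879, 1.27 and 0.67 CPM in KO NO and at 9.21, 13.3 and 14.9 CPM in KO RA (3.72 ± 0.39 and 3.57 ± 0.38, adjusted p = 0.00062 and 0.000474). The groups did not overlap and KO RA replicate 3 was the highest library. The carrier gene Crabp1 rose from 0.326–1.12 CPM to 54.6, 34.5 and 11.4 CPM (5.32 ± 0.83 and 5.72 ± 0.65). Its relative Crabp2, already present at 10.8–14.2 CPM, rose to 64.7, 77.1 and 51.5 CPM. Stra6, whose product is the membrane receptor that takes up retinol, went from 0.148–0.279 CPM to 15.4, 16.4 and 4.26 CPM (5.68 ± 0.83). Rdh10, which encodes an enzyme that makes retinaldehyde on the way to RA, rose by a smaller factor (1.83 ± 0.33).

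Dhrs3, which encodes an enzyme that turns retinaldehyde back into retinol, was the member that fell. It measured 12.1, 8.41 and 9.05 CPM in KO NO and 4.11, 4.74 and 1.98 CPM in KO RA, without overlap (-1.43 ± 0.31 and -1.16 ± 0.22, adjusted p = 0.0256 and 0.00701). Aldh1a2, the gene of an RA-synthesising enzyme, was called only without KO RA replicate 3 (3.10 ± 0.81, adjusted p = 0.0264), although all KO RA libraries (1.09–1.98 CPM) lay above all KO NO libraries (0.0838–0.322 CPM). Of the 11 receptors and corepressors, edgeR called 0 in either fit. At an unadjusted p under 0.05 there were 1 higher and 3 lower over all libraries and 3 and 2 without KO RA replicate 3, while over all libraries DESeq2 called 1 and 2 and limma-voom 2 and 2. Rarb, a receptor gene known as an RA target, was at 1.1–1.67 CPM in KO NO and at 2.62, 4.19 and 5.05 CPM in KO RA (1.5 ± 0.46 and 1.28 ± 0.47, adjusted p = 0.0824 and 0.0915), so its groups were apart but the test was not passed. Rara was at 43.9 and 43 CPM in KO RA replicates 1 and 2 and at 12.1 CPM in replicate 3, with 29.7–33.8 CPM in KO NO.

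RAR and RXR bind as pairs to direct repeats of a hexamer that is commonly spelled AGGTCA in textbooks. The spelling AGTTCA was also accepted in the search, as was GGGTCA beside the related GGTTCA form, with a spacer of 5 or 2 bases and on either strand. The 2 spacers were searched separately, so 1 window could hold both. The search covered 250 bases before to 50 bases after the start of each basic transcript in GENCODE vM39 (GRCm39), and a gene was counted when any of its windows held a repeat. A repeat with spacer 5 was found for 20 of 16429 tested genes with a window (0.122%), for 1 of 640 genes called higher over all libraries (0.156%) and for 0 of 262 called lower. With spacer 2 the numbers were 37 (0.225%), 1 (0.156%) and 1 (0.382%). Without KO RA replicate 3 a repeat with spacer 5 was found for 20 of 17245 tested genes (0.116%), 1 of 1466 called higher (0.0682%) and 2 of 1305 called lower (0.153%), and one with spacer 2 for 38 (0.22%), 3 (0.205%) and 2 (0.153%). A match is a description of letters and no evidence of binding, and no match says nothing about the receptors. The higher gene with spacer 5 was Cyp26a1, with the repeat at bases -17 to -1 from a transcript start (chr19:37686224-37686240). Shown here are the called genes that carry such a repeat over all libraries, and Blvrb, a gene lower without KO RA replicate 3 (-2.30, adjusted p = 0.00118) with the same hexamers as Cyp26a1. Each is written 5′ to 3′ along the gene with the hexamers in capitals, which are reverse complements of the spellings above in Cyp26a1, Slc7a7 and Blvrb.
Cyp26a1, plus strand, spacer 5: taaagaTGAACTttgggTGAACT
Slc45a3, plus strand, spacer 2: gaaactaaGGGTCAgtAGGTCAagttacaa
Slc7a7, minus strand, spacer 2: aatgacttTGAACTtcTGACCCtcatgtct
Blvrb, plus strand, spacer 5: aaccttTGAACTggcttTGAACTca

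Slc45a3 (repeat at chr1:131898224-131898237) was higher in KO RA (1.5, adjusted p = 0.0337) and Slc7a7 (chr14:54655628-54655641) was lower, as given above. The repeat of Blvrb lies at chr7:27151824-27151840. Genes with a repeat thus stood on both sides of the comparison.

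Of 18 other genes listed as direct RA targets, 4 were higher and 0 lower of 16 tested over all libraries, and 10 and 0 of 17 without KO RA replicate 3. The nuclear receptor genes Nr2f1 and Nr2f2, which act in regional patterning, went from 0–0.264 CPM to 25.3, 7.22 and 4.36 CPM (Nr2f1) and from 0.178–0.264 CPM to 24.2, 10.9 and 3.17 CPM (Nr2f2). KO RA replicate 3 was the lowest KO RA library for both and still above every KO NO library. Meis1, which encodes a Hox cofactor, rose from 2.37–3.78 CPM to 56.2, 30.8 and 38.2 CPM (3.77 ± 0.53 and 3.82 ± 0.54, adjusted p = 0.00395 and 0.00164). Zfp703 rose from 3.49–5.48 CPM to 25.2, 22.2 and 7.93 CPM.

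Several Hox genes of paralogue groups 1 to 5 rose to low levels. Of 15 listed, 5 were higher and 0 lower of 13 tested over all libraries, and 4 and 0 of 14 without KO RA replicate 3. Their median log2 fold change was 3.81 and 2.94, or 2.41 and 2.72 with members that had 0 counts in a group placed at the bound that 3 counts over the group set. Hoxb2 was at 0, 0.178 and 0.0279 CPM in KO NO and at 4.92, 1.7 and 3.17 CPM in KO RA (adjusted p = 0.00703 and 0.00316). Hoxa2 was at 0, 0.533 and 0.14 CPM and then at 5.69, 3.03 and 5.45 CPM (adjusted p = 0.0332 and 0.018). Hoxb3 (at most 0.0296 CPM in KO NO, 0.443–1.17 CPM in KO RA) and Hoxb4 (at most 0.0293 CPM, then 0.238–0.496 CPM) were called in both fits as well. KO NO and KO RA did not overlap for these 4 genes, KO RA replicate 3 included.

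Hoxa5 was called over all libraries (adjusted p = 0.0499) but not without KO RA replicate 3 (adjusted p = 0.088). That library held 6.05 CPM, beside 1.26 and 0.443 CPM in KO RA replicates 1 and 2. Hoxb1 was at or under 0.296 CPM in every KO library and was not tested. Of the 24 Hox genes of groups 6 to 13, 5 passed the filter over all libraries and 9 without KO RA replicate 3, and edgeR called 0 in either fit. At an unadjusted p under 0.05 there were 1 higher and 0 lower over all libraries and 0 and 0 without KO RA replicate 3, while over all libraries DESeq2 called 1 and 0 and limma-voom 0 and 0. Hoxb13, of the most posterior group, was at 2.37–4.77 CPM in KO NO and at 4.15, 3.44 and 0.694 CPM in KO RA.

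Regional transcription factors of both hindbrain and forebrain were called, mostly from low levels. Of 26 hindbrain and spinal cord factors, 5 were higher and 0 lower of 16 tested over all libraries, and 8 and 1 of 18 without KO RA replicate 3. Irx5 went from 0.674–1.03 CPM to 6.55, 6.1 and 1.68 CPM (2.57 ± 0.54 and 2.95 ± 0.41, adjusted p = 0.0218 and 0.00157). Pax3, of the dorsal neural tube, rose from 0.0558–0.0879 CPM to 1.94, 0.715 and 0.198 CPM. Of 24 forebrain and midbrain factors, 2 were higher and 0 lower of 11 tested over all libraries, and 6 and 1 of 13 without KO RA replicate 3. Emx2, of the dorsal forebrain, rose from 0.237–0.307 CPM to 2.12, 1.33 and 1.39 CPM. Otx2, of forebrain and midbrain, was the most abundant of them in KO NO, at 132, 162 and 161 CPM, and was at 82, 104 and 19.4 CPM in KO RA. The Otx2 groups did not overlap, and the gene was called lower only without KO RA replicate 3 (-1.14 ± 0.46 and -0.71 ± 0.18, adjusted p = 0.157 and 0.0224).

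Neural progenitor markers moved unevenly. Before RA, Sox2, a transcription factor gene expressed in neural stem cells, was at 57.7–63.5 CPM in KO NO, and Nes, the nestin gene, at 31.2–37.2 CPM. Of 22 listed, 8 were higher and 2 lower of 22 tested over all libraries, and 12 and 2 of 22 without KO RA replicate 3. Fabp7, a fatty acid binding protein of radial glia, went from 0.146–0.391 CPM to 40.6, 15.6 and 155 CPM (8 ± 0.95 and 6.67 ± 0.61, adjusted p = 0.00157 and 0.000162), with KO RA replicate 3 highest. Sox1 went from 0.118–0.307 CPM to 17.9, 13.9 and 3.07 CPM, with KO RA replicate 3 lowest. The intermediate filament genes Vim and Nes, already expressed, rose less. Vim rose from 102–151 CPM to 553, 435 and 639 CPM and Nes from 31.2–37.2 CPM to 64.2, 56.2 and 75 CPM (0.92 ± 0.21 and 0.79 ± 0.17, adjusted p = 0.0304 and 0.011). Cdh2, the neural cadherin gene, rose from 23.8–28.6 CPM to 80.1, 61 and 45.8 CPM. The 2 members that fell were Lin28a and Lin28b, which encode RNA-binding proteins of early progenitors that block let-7 microRNAs. Lin28a was at 208, 192 and 232 CPM in KO NO and at 77.6, 81 and 21.3 CPM in KO RA (-1.81 ± 0.41 and -1.42 ± 0.17), with no overlap. Pax6 was at 0.791–2.01 CPM and then at 4.33, 1.84 and 2.78 CPM, overlapped, and was not called in either fit (adjusted p = 0.135 and 0.107).

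Of 28 proneural and Notch pathway genes, 7 were higher and 0 lower of 21 tested over all libraries, and 11 and 0 of 25 without KO RA replicate 3, with medians of 0.95 and 1.35. Neurog2, a proneural factor, went from 0.0293, 0.0889 and 0.0558 CPM to 1.44, 1.64 and 0.396 CPM (adjusted p = 0.0247 and 0.00758), and its groups were apart. Gadd45g (3.92 ± 0.40) and Insm1 (3.00 ± 0.42), genes of cells that become neurons, also rose. Of the Notch pathway proper, the ligand gene Jag1 (1.26 ± 0.24) and the receptor gene Notch1 (2.28 ± 0.47) rose, and Notch3 was called only without KO RA replicate 3, at 17.2 and 21.7 CPM beside 2.68 CPM in that library and 5.07–7.57 CPM in KO NO.

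Tubb3, the neuronal tubulin gene whose protein is a usual marker of neurons, was at 18.3, 17.5 and 14.2 CPM in KO NO and at 57.8, 32.9 and 28.8 CPM in KO RA. It rose without overlap between the groups (1.26 ± 0.27 and 1.43 ± 0.23, adjusted p = 0.0243 and 0.00321). In WT the log2 fold change of Tubb3 was 0.27 in both fits (adjusted p = 0.772 and 0.446). The paper reports less TUBB3 protein in KO than in WT cells after RA. That is protein compared between genotypes, whereas the values here are RNA compared between treatments. Of 40 neuronal markers, 9 were higher and 1 lower of 34 tested over all libraries, and 12 and 3 of 34 without KO RA replicate 3, with medians of 1.11 and 1.34. Gap43, of growing axons, rose from 3.52–4.58 CPM to 30.7, 31.9 and 66.6 CPM (3.45 ± 0.37). Map2, of dendrites, rose from 2.49–3.46 CPM to 36.6, 27.9 and 7.73 CPM (2.95 ± 0.52). Nhlh2, a factor of newborn neurons, went from at most 0.0296 CPM to 5.91, 1.02 and 1.59 CPM. Some markers of mature neurons were not called higher. The neurofilament gene Nefh fell from 1.66–2.58 CPM to 0.451, 0.443 and 0.198 CPM (-2.44 ± 0.52). Rbfox3, which encodes the NeuN antigen, was at 1.27–2.07 CPM in KO NO and at 0.451, 0.784 and 0.0991 CPM in KO RA (adjusted p = 0.181 and 0.243), and Gad1, of GABA synthesis, at 0.264–0.533 CPM and 1.26, 1.81 and 0.396 CPM (adjusted p = 0.453 and 0.342). In bulk RNA, fewer cells of a type and less RNA per cell cannot be told apart.

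Of 20 astroglial and radial glial markers, 6 were higher and 0 lower of 16 tested over all libraries, and 8 and 0 of 17 without KO RA replicate 3, with medians of 2.53 and 2.28. Sparcl1, a matrix glycoprotein gene of radial glia and astrocytes, went from 0.557, 1.27 and 1.42 CPM to 49.9, 81.1 and 106 CPM (6.18 ± 0.61 and 5.90 ± 0.52, adjusted p = 0.000483 and 0.000133). Tnc, the tenascin-C gene, rose from 0.53–0.592 CPM to 24.9, 18.6 and 56.5 CPM (5.86 ± 0.62 and 5.23 ± 0.50). Both were highest in KO RA replicate 3. The nuclear factor genes Nfix (4.16 ± 0.58) and Nfib (2.44 ± 0.46), which act in gliogenesis, also rose. Of 14 oligodendrocyte lineage genes, 1 was higher and 0 lower of 7 tested over all libraries, and 2 and 0 of 8 without KO RA replicate 3. Mbp, the myelin basic protein gene, was at 1.68–1.96 CPM in KO NO and at 14.5, 21.4 and 1.88 CPM in KO RA, so that KO RA replicate 3 lay within the KO NO range.

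Some markers of cell types outside the neural lineage rose as well. Of 25 mesenchymal markers, 12 were higher and 0 lower of 22 tested over all libraries, and 16 and 0 of 23 without KO RA replicate 3, with medians of 2.30 and 1.90. In WT, 7 were higher and 0 lower of 23 tested without KO RA replicate 3. The summed level of the list was 150 to 168 CPM in KO NO and 511, 366 and 684 CPM in KO RA replicates 1, 2 and 3, the last of which depends on the scaling of that library. Besides Prrx1, Col1a2 and Col3a1 the genes higher in KO RA included Prrx2 (3.71 ± 0.41), Twist2 (4.01 ± 0.50) and the collagen gene Col1a1, which went from at most 0.0558 CPM to 6.68, 2.69 and 5.45 CPM. Postn, a matrix gene, was at 0.385–1.03 CPM in KO NO, 5.37 and 1.81 CPM in KO RA replicates 1 and 2 and 80.8 CPM in replicate 3. Acta2, the smooth muscle actin gene, rose from 1.69–4.13 CPM to 111, 62.3 and 210 CPM (5.37 ± 1.09 and 4.79 ± 1.15, adjusted p = 0.0192 and 0.0237), and Myl9, of smooth muscle myosin, from 6.07–12.1 CPM to 54.8, 37.3 and 265 CPM. Of 24 smooth muscle and actin bundle genes, 4 were higher and 0 lower of 24 tested over all libraries, and 5 and 0 of 24 without KO RA replicate 3, and their summed level was 1602 to 2088 CPM in KO NO and 2186 to 4323 CPM in KO RA.

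Neural crest markers were split. Of 15 listed, 5 were higher and 2 lower of 14 tested over all libraries, and 6 and 2 of 14 without KO RA replicate 3, and their summed level was 83.9 to 95.8 CPM in KO NO and 72.8 to 139 CPM in KO RA. Sox9, Ets1 (1.52 ± 0.24), Pax3, Tfap2b and Snai2 rose. Erbb3, a receptor gene of crest and glial precursors, fell from 8.11, 4.24 and 5.56 CPM to 0.948, 1.36 and 0.396 CPM (-2.67 ± 0.47), and the homeobox gene Msx1 fell from 5.27–14.7 CPM to 1.85, 1.06 and 1.68 CPM (-2.65 ± 0.48). Of 19 endothelial and haematopoietic markers, 3 were higher and 0 lower of 8 tested over all libraries, and 5 and 0 of 10 without KO RA replicate 3. Their summed level was 6.75 to 12.1 CPM in KO NO and 18 to 27.6 CPM in KO RA, and 2 members were at 0 in every KO library. Kdr, a VEGF receptor gene, went from 0.14–0.293 CPM to 5.33, 5.18 and 2.38 CPM, and Emcn from 0 counts in the 3 KO NO libraries to 0.677, 1.16 and 1.98 CPM. Cdh5, the endothelial cadherin gene, was also at 0 in KO NO and was called without KO RA replicate 3 (2.62, 2.21 and 0.297 CPM, adjusted p = 0.00503). Of 19 endoderm markers, 0 were higher and 1 lower of 10 tested over all libraries, and 2 and 2 of 13 without KO RA replicate 3, and the member called lower in both was the epithelial gene Cldn6 (22.3, 8.77 and 11.6 CPM, then 1.13, 1.98 and 0.991 CPM). Of the mesenchymal, neural crest, smooth muscle and endoderm lists, 0, 0, 0 and 3 members were at 0 in every KO library. The part of such cells in the results above was not tested.

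Axon guidance, the longest of the lists, held the largest number of calls. The shorter mesenchymal list had 12 of 22 and 16 of 23 higher, and over all genes tested 3.89% and 8.48% were higher. Of 42 ligands and receptors, 18 were higher and 1 lower of 42 tested over all libraries, and 29 and 1 of 42 without KO RA replicate 3, with medians of 1.65 and 1.88 beside 0.11 and -0.02 over all genes. They included the Eph receptor gene Epha7 (2.10 ± 0.28), the semaphorin gene Sema6d (2.76 ± 0.54), the semaphorin receptor gene Nrp1 (3.30 ± 0.46), the repellent gene Slit2 (2.70 ± 0.44) and its receptor gene Robo2 (3.80 ± 0.79), and the netrin gene Ntn1 (1.92 ± 0.33) and its receptor gene Dcc, which went from at most 0.0296 CPM to 2.39, 1.19 and 0.793 CPM. Rgmb, a BMP co-receptor gene, rose from 3.67–4.22 CPM to 19.3, 15.9 and 6.84 CPM (1.83 ± 0.34 and 2.14 ± 0.20). The median log2 ratio to KO NO over the list, on CPM + 1, was 1.45, 1.18 and 0.46 in KO RA replicates 1, 2 and 3. The member that fell was Unc5b, a netrin receptor gene also used by vessels, from 54–78.9 CPM to 25.8, 24.4 and 22.3 CPM.

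Of 15 IGF pathway genes, 5 were higher and 0 lower of 14 tested over all libraries, and 9 and 0 of 14 without KO RA replicate 3, and Igf2, Igfbp5 and Igfbp4 (2.72 ± 0.40) led them. Igf1 went from at most 0.205 CPM to 6.32, 3.3 and 49.9 CPM, with KO RA replicate 3 far above the others. H19, the non-coding neighbour of Igf2, rose from 0.498–1.07 CPM to 2.12, 2.28 and 3.47 CPM (1.80 ± 0.42). Of 36 TGF-beta and BMP genes, 10 were higher and 2 lower of 36 tested over all libraries, and 14 and 2 of 36 without KO RA replicate 3. The ligand gene Tgfb2 (2.82 ± 0.33), Ltbp1 (2.38 ± 0.24), which encodes a protein that stores the ligand in the matrix, and the BMP antagonist gene Nog (3.12 ± 0.57) rose, while the ligand gene Tgfb1 (-1.73 ± 0.31) fell.

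Of 39 Wnt genes, 7 were higher and 1 lower of 34 tested over all libraries, and 12 and 3 of 34 without KO RA replicate 3. Rspo3, whose product strengthens Wnt signals, rose from 2.76–3.67 CPM to 21.4, 22.7 and 29.6 CPM (2.99 ± 0.27 and 2.83 ± 0.23, adjusted p = 0.000309 and 0.000106), Frzb, the gene of a secreted Wnt antagonist, also rose (3.55 ± 0.68), and the ligand gene Wnt3 fell from 15–20.4 CPM to 5.96, 3.34 and 1.88 CPM. Of 18 Hedgehog genes, 2 were higher and 1 lower of 14 tested over all libraries, and 7 and 1 of 14 without KO RA replicate 3. The co-receptor gene Boc (2.62 ± 0.58) and the effector gene Gli2 (2.29 ± 0.53) rose. Of 27 FGF genes, 1 was higher and 0 lower of 24 tested over all libraries, and 3 and 1 of 24 without KO RA replicate 3. The ligand gene Fgf9 was the one called over all libraries, at 0.0279–0.469 CPM in KO NO and 2.89, 2.73 and 5.15 CPM in KO RA.

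**Figure D3:**
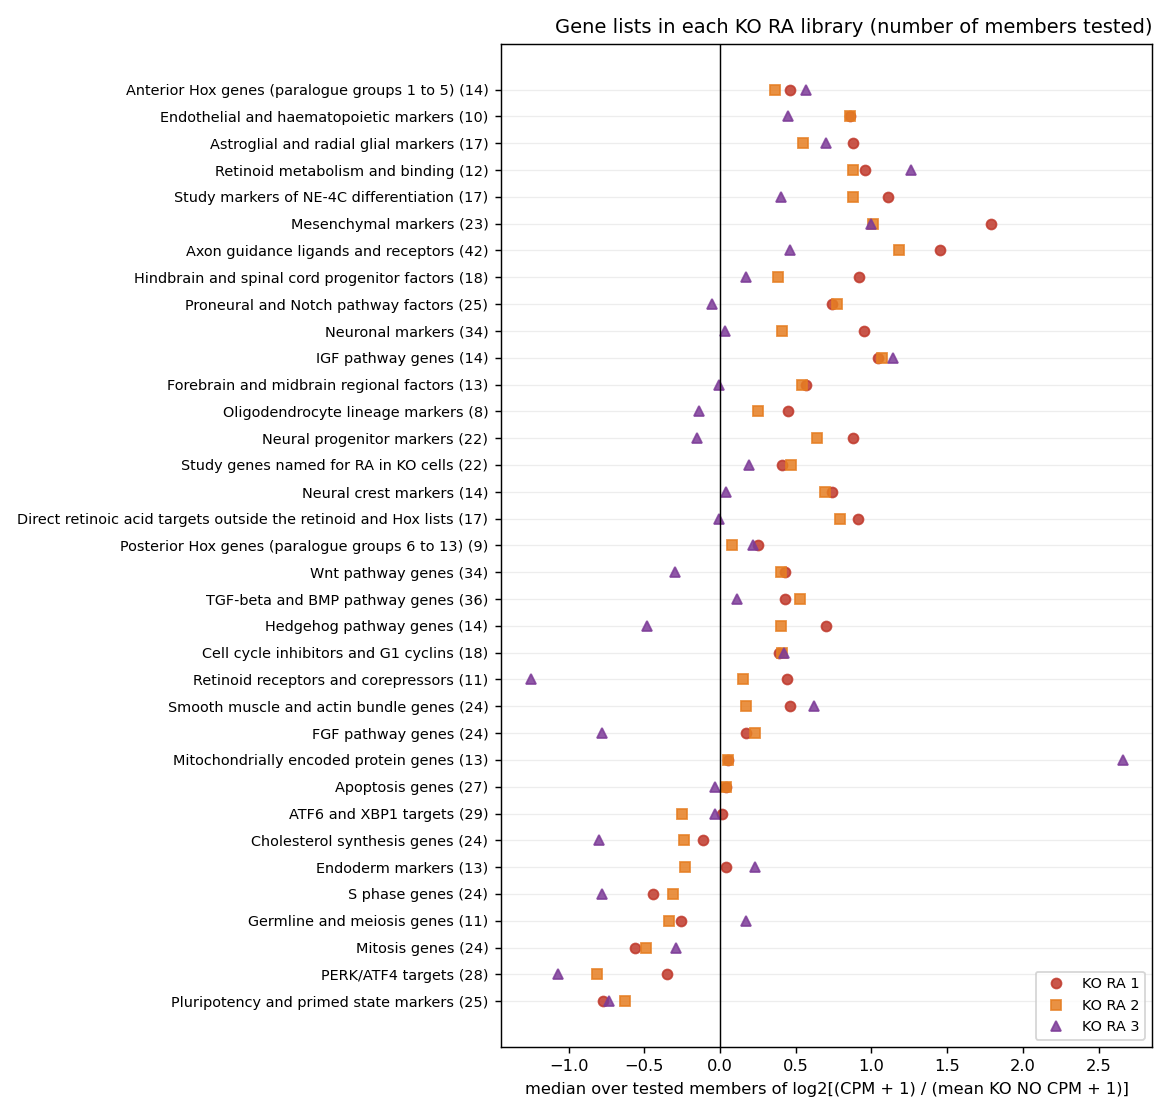
Median log2 ratio of each KO RA library to the mean of KO NO, on CPM + 1, over the tested members of each gene list, with red circles, orange squares and purple triangles for KO RA replicates 1, 2 and 3. Replicate 3 lies apart from replicates 1 and 2 for the mitochondrially encoded genes (2.66 against 0.05 and 0.05) and the retinoid receptors and corepressors (-1.25 against 0.44 and 0.15).

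Of 26 genes of the pluripotent or primed state, 0 were higher and 2 lower of 25 tested over all libraries, and 1 and 6 of 25 without KO RA replicate 3, with medians of -0.62 and -0.72. Nodal, the gene of a signal of the early embryo, fell from 76.5, 84.7 and 67.6 CPM to 23.2, 22.9 and 12.2 CPM (-1.97 ± 0.30 and -1.74 ± 0.24, adjusted p = 0.00575 and 0.0015), and Dnmt3l, of a cofactor of DNA methylation, from 17–27.2 CPM to 3.2, 0.818 and 2.78 CPM. For both the groups were apart. Trim71 (-1 ± 0.20) and Fgf5 (-1.28 ± 0.32) were called lower only without KO RA replicate 3. Of 25 germline and meiosis genes, 10 were tested over all libraries and 11 without KO RA replicate 3, and edgeR called 0 in either fit. At an unadjusted p under 0.05 there were 0 higher and 0 lower over all libraries and 0 and 0 without KO RA replicate 3, while over all libraries DESeq2 called 0 and 0 and limma-voom 0 and 2.

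For cell cycle genes the count depended on KO RA replicate 3. Of 24 mitosis genes, 0 were higher and 3 lower of 24 tested over all libraries, and 0 and 13 of 24 without KO RA replicate 3. Top2a, the topoisomerase gene of dividing cells, was at 384, 399 and 380 CPM in KO NO and at 191, 200 and 135 CPM in KO RA (-1.14 ± 0.22 and -1 ± 0.11, adjusted p = 0.015 and 0.000567). Cdc20, of an activator of the anaphase-promoting complex, was at 193, 161 and 163 CPM and then at 77.5, 78.7 and 51.4 CPM. The groups of Top2a and of Cdc20 were apart. Ccnb1, the mitotic cyclin gene, was at 60.2–75.4 CPM in KO NO, 35.5 and 38.5 CPM in KO RA replicates 1 and 2 and 114 CPM in replicate 3, and it was called lower only without that library (-0.93 ± 0.14, adjusted p = 0.00204).

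Of 24 S phase genes, 0 were higher and 0 lower of 24 tested over all libraries, and 0 and 9 of 24 without KO RA replicate 3. At an unadjusted p under 0.05 edgeR gave 1 higher and 7 lower over all libraries, while DESeq2 called 0 and 6 and limma-voom 1 and 11. For Tyms, of thymidylate synthesis, the sign turned, from 1.30 ± 0.76 over all libraries to -0.92 ± 0.15 without KO RA replicate 3 (adjusted p = 0.304 and 0.00384). Tyms was at 81.8–106 CPM in KO NO, 45.9 and 53 CPM in KO RA replicates 1 and 2 and 588 CPM in replicate 3. Of 18 cell cycle inhibitors and G1 cyclins, 4 were higher and 0 lower of 18 tested over all libraries, and 3 and 0 of 18 without KO RA replicate 3. Gadd45g and Btg2 (1.22 ± 0.30), which restrain division, and Ccnd2 (1.18 ± 0.30), a cyclin gene that promotes entry into S phase, rose.

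Faf2 acts in ER protein quality control, so genes of the unfolded protein response were listed too. Hspa5, which encodes the ER chaperone BiP, was at 490, 504 and 447 CPM in KO NO and at 476, 374 and 709 CPM in KO RA, groups that overlapped (0.11 ± 0.27 and -0.19 ± 0.17, adjusted p = 0.822 and 0.49). Of 29 targets of PERK and ATF4, 0 were higher and 2 lower of 28 tested over all libraries, and 0 and 9 of 28 without KO RA replicate 3, with medians of -0.73 and -0.63. Chac1, of glutathione breakdown, fell from 39, 44.2 and 40.3 CPM to 25.2, 17.7 and 18.2 CPM (-1.01 ± 0.24 and -0.95 ± 0.23, adjusted p = 0.0338 and 0.0183), and Mthfd2, of mitochondrial folate metabolism, from 70.3–72.7 CPM to 44.5, 33 and 20.9 CPM. Phgdh (-0.70 ± 0.13) and Psat1 (-1.16 ± 0.28), of serine synthesis, were called lower only without KO RA replicate 3. Cth, of cysteine synthesis, changed sign between the fits (0.41 ± 0.73 and -1.5 ± 0.34), with 666 CPM in KO RA replicate 3 beside 80.4 and 64.9 CPM in the others.

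Of 29 ATF6 and XBP1 targets, 1 was higher and 0 lower of 29 tested over all libraries, and 2 and 4 of 29 without KO RA replicate 3, and Serp1, which stabilises proteins at the ER translocon, was called higher in both (1.67 ± 0.41 and 0.82 ± 0.13). Of 24 cholesterol synthesis genes, 0 were higher and 1 lower of 24 tested over all libraries, and 0 and 1 of 24 without KO RA replicate 3, and the member that fell in both was the sterol isomerase gene Ebp (40.4–53.6 CPM, then 13.2, 20.5 and 16.8 CPM). Of 27 apoptosis genes, 1 was higher and 0 lower of 27 tested over all libraries, and 3 and 2 of 27 without KO RA replicate 3, and the executioner caspase gene Casp6 was higher in both (1.73 ± 0.36 and 1.41 ± 0.32).

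Of 17 marker genes that the study named for NE-4C differentiation, 7 were higher and 0 lower of 16 tested over all libraries, and 9 and 1 of 17 without KO RA replicate 3. Of 22 genes that it named for RA in knockout cells, 8 were higher and 1 lower of 22 tested over all libraries, and 8 and 1 of 22 without KO RA replicate 3. The study took the first list from earlier work on the line and chose the second on the same samples, so the counts of the second are no independent evidence of direction. For the first list the paper describes Nes and Otx2 as decreased in WT cells, and KO cells as following the trends too. In KO RA, Nes was instead among the genes called higher (0.92 ± 0.21 and 0.79 ± 0.17, adjusted p = 0.0304 and 0.011). The WT log2 fold change of Nes was -0.36 in both fits (adjusted p = 0.532 and 0.163). Otx2 was called lower in KO RA only without KO RA replicate 3. Many of the second list were named for KO RA against WT RA, with Mir9-3hg as increased there. The counts here are for KO RA against KO NO and do not bear on that comparison. The member of the second list that fell was Mir9-3hg, a host transcript of miR-9, from 13.7, 11 and 12.9 CPM to 5.33, 4.26 and 5.35 CPM (-1.33 ± 0.34 and -1.40 ± 0.33). Wnt1 was at 0 counts in the 3 KO NO libraries and at 0.813, 0.511 and 0.496 CPM in KO RA (adjusted p = 0.0243 and 0.0183). The 13 mitochondrially encoded protein genes had medians of 1.49 and 0.08, and edgeR called 0 of them in either fit. At an unadjusted p under 0.05 there were 9 higher and 0 lower over all libraries and 0 and 0 without KO RA replicate 3, while over all libraries DESeq2 called 3 and 0 and limma-voom 0 and 0. mt-Co1 was at 17901 and 16922 CPM in KO RA replicates 1 and 2 and at 101080 CPM in replicate 3.

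Whether knockout cells responded unlike WT cells was tested as the difference of their log2 fold changes. Over all 12 libraries edgeR called 0 genes in either direction (0.0% of 16502). At an unadjusted p under 0.05 there were 913 genes with a more positive and 510 with a more negative response in KO, the smallest adjusted p was 0.0824, and DESeq2 called 214 and 95 and limma-voom 588 and 397. Without KO RA replicate 3, 139 genes had a more positive response in KO (0.802% of 17327) and 93 a more negative one (0.537%). Of the 139, 60 had a positive log2 fold change in both genotypes and 78 a positive one in KO and a negative one in WT. Of the 93, 74 had a negative log2 fold change in KO and a positive one in WT. Of the 139, the neural progenitor list held 5 among 22 tested members, axon guidance 5 among 42 and the mesenchymal list 3 among 23. The IGF list held 2 among 14, the astroglial and radial glial list 2 among 17, the hindbrain and spinal cord list 2 among 18 and the Wnt list 2 among 34. Other lists held fewer, such as 0 among 36 TGF-beta and BMP genes, 0 among 17 direct RA targets and 0 among 14 Hox genes of groups 1 to 5. Of the 93, the mitosis list held 2 among 24 and retinoid metabolism and binding 1 among 12.

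Several matrix and growth factor genes that led the KO response were among the 139. Igf2 rose in WT as well, from 7.96, 6.06 and 19 CPM to 104, 138 and 87 CPM, and its response was larger in KO by 3.26 ± 0.55 (adjusted p = 0.0294) without KO RA replicate 3, with an adjusted p of 0.13 over all libraries. Palmd went from 1.27–1.95 CPM to 4.33–4.51 CPM in WT, and the difference was 3.62 ± 0.43 (adjusted p = 0.0101, and 0.0824 over all libraries). For the Wnt antagonist gene Frzb, WT moved from 3.03, 2.14 and 6.59 CPM to 1.59, 1.31 and 1.1 CPM while KO rose, a difference of 5.53 ± 0.70 (adjusted p = 0.0114). The genes Igfbp4, Slc24a3 and Lrrn2 had log2 fold changes of -0.04, 0.59 and -0.06 in WT and were called higher in KO. Mean levels of Igfbp4 were 4.03 CPM in KO NO and 26.4 CPM in KO RA, beside 23.8 CPM in WT NO and 23 CPM in WT RA. Those of Slc24a3 were 0.252 and 4.38 CPM in KO, beside 1.01 and 1.51 CPM in WT. For both genes KO NO thus lay below WT NO before RA. Epop, whose product binds Polycomb complexes, went in WT from 136, 153 and 151 CPM to 71.9, 61.7 and 59.2 CPM and in KO from 68.4–72.6 CPM to 92.1, 107 and 47.7 CPM.

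In the other direction stood the metallothionein gene Mt2, which went in WT from 43.5, 40.7 and 62.9 CPM to 167, 145 and 110 CPM and in KO from 125, 84.7 and 92.8 CPM to 37, 47.2 and 35.1 CPM. The difference was -2.80 ± 0.35 (adjusted p = 0.0101, and 0.0824 over all libraries). Dmrt1, a transcription factor gene of the germ line, fell in KO from 18.3–24.8 CPM to 6.18, 4.36 and 1.78 CPM and was at 2.78–4.82 CPM in WT NO and 7.81–8.12 CPM in WT RA. Fbxo15 depended on KO RA replicate 3. It was at 9.33–10.3 CPM in KO NO, 6 and 8.55 CPM in KO RA replicates 1 and 2 and 72.1 CPM in replicate 3, and in WT it went from 0.88–1.18 CPM to 9.99–15.6 CPM. Dhrs3, which fell in KO, had a log2 fold change of 0.43 in WT, and the difference was -1.59 ± 0.29 (adjusted p = 0.034). Without KO RA replicate 3, the test of the difference called 0 of 12 genes of retinoid metabolism and binding as more positive in KO. It also called 0 of the 14 tested Hox genes of groups 1 to 5 as more positive. For Cyp26a1 the difference was 1.07 ± 0.53 (adjusted p = 0.307), for Crabp1 2.15 ± 0.86 (adjusted p = 0.209) and for Hoxb2 0.06 ± 0.79 (adjusted p = 0.991).

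**Figure D4:**
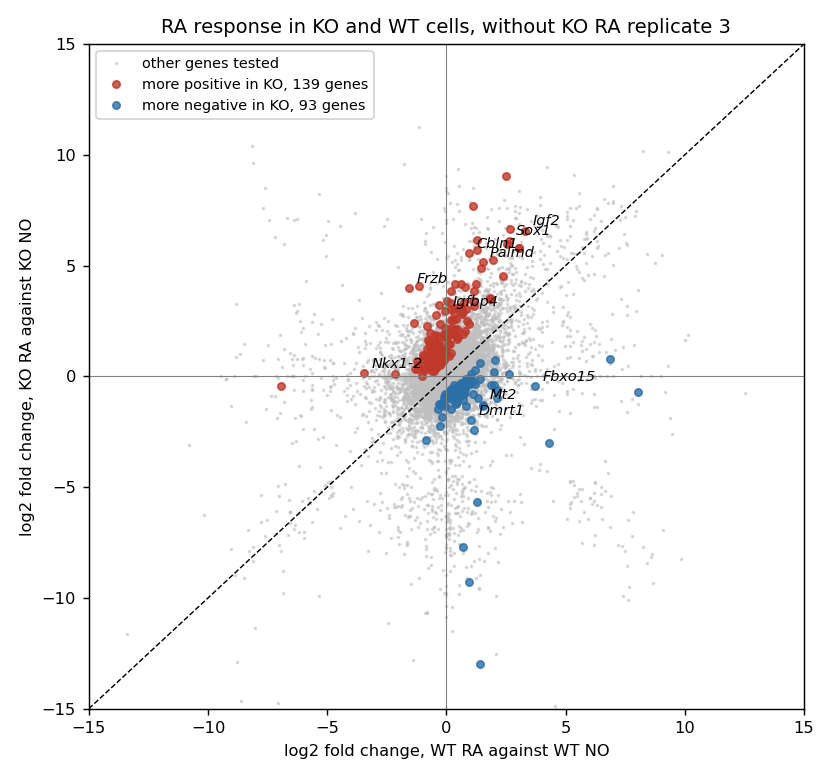
Log2 fold change with RA in KO cells (vertical axis) against that in WT cells (horizontal axis) for the 17327 genes tested without KO RA replicate 3, with equality as a dashed line. Red points are the 139 genes with a more positive and blue points the 93 with a more negative response in KO, by edgeR's test of the difference.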

How the data were processed

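RNA was sequenced from 12 libraries of NE-4C cells. The authors processed the reads with nf-core/rnaseq (STAR and Salmon) on GRCm39 with an Ensembl annotation and deposited estimated counts per gene, scaled from TPM to library size, which removes transcript length. Whether the counting used strand is not given in the sources used here, so overlapping and antisense genes are uncertain. The table held 57010 genes, of which 27569 were at 0 in all libraries, and 56310 IDs were found in GENCODE vM39 (GRCm39), the source of coordinates and transcript starts. MicroRNA sequences are from RefSeq.

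The deposited estimated counts were rounded to whole numbers, filtered with filterByExpr, scaled by TMM and fitted with edgeR 4.0.16 (quasi-likelihood test, 1 model of all 4 groups, R 4.3.3), with Benjamini-Hochberg adjustment over all genes tested and two-sided p-values. Each fit was run with and without KO RA replicate 3. The difference between genotypes was the contrast of their RA responses. DESeq2 1.42.0 and limma-voom (limma 3.58.1) were among 21 alternatives. KO library totals were 17370069 to 30738717 counts. The median SE of the log2 fold change was 0.43 over all libraries and 0.30 without KO RA replicate 3, with common dispersions of 0.215 and 0.116. Replicates are passages of 1 line, so p-values measure the spread between passages.

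The members and the 35 gene lists (753 genes) were chosen with earlier results of these data known. Named were the 10 genes with the smallest p in each direction whose groups did not overlap and that reached 1 CPM, and the next 5 in each direction without KO RA replicate 3. Each list gave up to 4 genes called in either fit, taken by the smallest p without KO RA replicate 3. Faf2, Tubb3, Hspa5, the study's lists, and the 5 leading genes in each direction for the difference were named too. Other genes, list members mostly, were named after their values were seen. Some genes that these rules select are not reported here.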

Additional observations from a re-analysis of the deposited data

Results flagged for a closer look

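Of the genes named above or selected for naming by the stated rule, 40 had an RA response that differed between KO and WT in edgeR's test of the difference itself (Benjamini-Hochberg adjusted p under 0.05) without KO RA replicate 3. Some of them were named because they led this same test, so the 40 are partly fixed by the choice and are no independent result. Over all 17327 genes tested, 139 (0.802%) were called more positive and 93 (0.537%) more negative in KO. Over all 12 libraries the same test called 0 genes, with a smallest adjusted p of 0.0824 and 913 and 510 genes at an unadjusted p under 0.05. The values are the log2 fold change in KO minus that in WT.

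The response was more positive in KO for Cdh11 (2.76), Igf2 (3.26), Gxylt2 (3.44), Ptn (3.45), Palmd (3.62), Col1a2 (2.72), Vcan (2.90), Irx3 (2.16), Dchs1 (2.64), Cbln1 (4.6), En1 (2.07), Sox1 (3.52), Cdh2 (1.40), Tnc (3.29), Fscn1 (0.94), Rgmb (1.67), Sema6d (2.02), Rspo3 (2.18), Frzb (5.53), Igfbp4 (2.99), Nes (1.15), Nkx1-2 (3.61, from 0.15 in KO, where it was not called, and -3.46 in WT), Slc24a3 (3.58), Epop (1.68), Lrrn2 (2.23), Prr5 (1.78) and Twist2 (3.82). Cbln1 and Frzb had the largest differences of these, and the mesenchymal and matrix genes Cdh11, Col1a2 and Vcan were among them. Of the mesenchymal list, 3 of 23 tested members were called. Col3a1 and Prrx1 did not pass the same edgeR test (adjusted p = 0.113 and 0.107). In WT their log2 fold changes were 5.19 and 4.33.

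The response was more negative in KO for Pcolce2 (-2.03), Rhd (-1.62), Lars (-1.12), Lrpap1 (-1.27), Ccnb1 (-0.97), Mt2 (-2.80), Nmnat2 (-3.10), Dmrt1 (-3.01), Il3ra (-2.17), Fbxo15 (-4.16), Hbp1 (-1.53), Lamtor4 (-1.46) and Dhrs3 (-1.59). Of these, Ccnb1, Lamtor4, Fbxo15 and Hbp1 had KO log2 fold changes whose sign turned when single KO RA libraries were left out.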

How the results depend on the processing

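The numbers of higher and lower genes (642 and 262) were 1640 and 992 with DESeq2, 2500 and 2031 with limma-voom and quality weights, 444 and 139 with no filter, 178 and 18 with the 6 KO libraries alone and 2223 and 1991 with 5 of them. Leaving out 1 library gave 152 to 1469 higher and 42 to 1307 lower genes, the extremes being those without KO NO replicate 1 and without KO RA replicate 3. For the difference from WT the counts (0 and 0) were 214 and 95 with DESeq2 and 588 and 397 with limma-voom, and they ranged from 0 to 139 and from 0 to 93 over the libraries left out. The same replicate numbers did not deviate together (correlations of -0.0889, -0.0523 and -0.185). With the replicate number as a block the counts were 343 and 124, and with the block and without KO RA replicate 3 they were 1082 and 942, and 27 and 14 for the difference.

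Of the named genes called over all libraries or without KO RA replicate 3, the sign turned for 5. Tyms (1.30 over all libraries) was at -0.92 without KO RA replicate 3, -0.90 in the 5 KO libraries, -0.85 with limma-voom and -0.88 with the block and without that library. Under the same settings Cth (0.41) was at -1.5, -1.48, -1.47 and -1.59, Sec61b (0.77) at -0.65, -0.63, -0.54 and -0.70, and Lamtor4 (0.87) at -0.89, -0.87, -0.79 and -0.93. Over the libraries left out, Tyms ranged from -0.92 to 1.88, Cth from -1.5 to 0.96, Sec61b from -0.65 to 1.25, Lamtor4 from -0.89 to 1.4 and Ccnb1 (-0.16) from -0.93 to 0.20, with 0.17 without KO RA replicate 2. Of those called in neither fit, Ncor1, Rara, Hoxb13, Stag3, P2rx4, Hspa5, Nkx1-2, Fbxo15 and Hbp1 had values of both signs. The cause was not tested. With 3 libraries a group and a median SE of 0.43, the smallest called log2 fold change over all libraries was 0.68, and no smaller change was called.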

Other observations

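Host transcripts of microRNAs of the let-7, miR-99/100 and miR-125 families were higher after RA in KO, and a host of miR-9 was lower. They were chosen after their values were seen, and the counts are of the host RNA, not of the mature microRNA. Mir100hg (chr9:41238321-41628290) was at 0.205, 0.415 and 0.251 CPM in KO NO and at 14.5, 8.52 and 7.14 CPM in KO RA (log2 fold change 5.10 and 5.28 with and without KO RA replicate 3, adjusted p = 0.0013 and 0.000406). Mir99ahg (chr16:76970521-77586092) was at 0, 0.0592 and 0 CPM and then at 4.51, 2.21 and 13.9 CPM (adjusted p = 0.00192 and 0.000652). The groups did not overlap for either. Mir9-3hg fell, as given above. In WT, Mir100hg went from 0.106, 0.628 and 0.488 CPM to 5.82, 7.86 and 4.83 CPM, and Mir99ahg from 0.493, 0.259 and 0.275 CPM to 2.4, 2.52 and 2.82 CPM. The mature sequences that show the families are given 5′ to 3′ with the seed, bases 2 to 8, in capitals, and miR-100-5p and miR-99a-5p share theirs.
mmu-miR-100-5p (Mir100hg): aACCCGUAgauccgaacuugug
mmu-miR-99a-5p (Mir99ahg): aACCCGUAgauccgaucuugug
mmu-let-7c-5p (Mir99ahg): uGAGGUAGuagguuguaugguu
mmu-miR-125b-5p (both hosts): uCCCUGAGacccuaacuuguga
mmu-miR-9-5p (Mir9-3hg): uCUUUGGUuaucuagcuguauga

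The genes farthest above the other KO RA libraries in KO RA replicate 3, also chosen after their values were seen, included the annexin genes Anxa1 (478 beside 11.8 and 10.1 CPM) and Anxa3 (221 beside 11.7 and 8.76 CPM), the actin-binding gene Tmsb4x (9728 beside 377 and 290 CPM), the chemokine gene Ccl2 (46.3 beside 1.4 and 0.545 CPM), the calcium-binding protein gene S100a6 (166 beside 5.73 and 4.02 CPM) and the neuropeptide gene Nts (92 beside 2.48 and 2.28 CPM). Among those farthest below were the glycolytic gene Pfkl (10.6 beside 116 and 182 CPM), the forkhead gene Foxi3 (2.97 beside 26.7 and 32.2 CPM), the threonine dehydrogenase gene Tdh (5.35 beside 38.5 and 43.3 CPM) and the recoverin gene Rcvrn (0.793 beside 20.1 and 34.4 CPM). Their part in the results was not tested.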
